A study of Mus musculus with 8 samples.

Results

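Imprinted genes were examined in the oviducts of adult mice that had been given genistein (Gen), a soy phytoestrogen, as newborns. A list of 37 mouse genes with known parent-of-origin expression was drawn up by name, and their probes were found on the arrays by gene name, older synonym or probe description. Probes matched 35 of the 37 genes, in all 76 probes of the 41174 noncontrol probes on the array. Nespas and Rtl1 had no matched probe and were not analysed here. Of the 35 genes, 12 were classed as maternally expressed and 19 as paternally expressed. For 4 the expressed allele was classed as depending on the tissue (Grb10, Copg2, Gnas and Ube3a). The classes hold for tissues where a gene is imprinted, and imprinting in the oviduct was not tested.

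An imprinted gene is transcribed mainly from the copy inherited from 1 parent. The choice is set in the germ line by DNA methylation at an imprinting control region, is kept in body cells, and in several clusters acts through a long noncoding RNA that silences its neighbors on the same chromosome. Many imprinted genes act on growth, metabolism and placental function, and the dose of their product is often tied to having 1 active copy. The array signal is the sum of both alleles, so it does not show which allele a transcript came from.

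Control mice (n = 4 samples) were female CD-1 mice that received corn oil by subcutaneous injection on postnatal day (PND) 1 through PND5. Gen mice (n = 4 samples) received 50 mg/kg/day Gen in corn oil on the same days. At 6–8 weeks of age all underwent superovulation and mating, and oviducts without embryos were collected on gestation day (GD) 2, 48 hr after human chorionic gonadotropin (hCG). CD-1 is an outbred stock, and the methods describe the 4 samples of a group as independent biological replicates. They do not state how many mice made up an array sample, and each sample is called a mouse below. Each RNA was hybridized alone, with Cy3, to an Agilent whole mouse genome array. Signals are scaled processed intensities, and differences are on the log2 scale, Gen minus control, with the standard error (SE) and Benjamini-Hochberg adjusted p of limma over 41173 probes. A probe was called at an adjusted p under 0.05, and a gene with several probes is represented by its brightest unless stated. Signals of different probes are not compared with each other as amounts.

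All control arrays shared 1 slide and all Gen arrays another, and the effects of slide and treatment cannot be told apart. Control arrays had 25391 to 28949 probes well above background, and Gen arrays 29539 to 31485. The tissue label fit the arrays: all 9 listed markers of oviduct epithelium were measured, 0 were called, and their median difference was 0.01. Markers of other cell types differed more. The ovarian steroidogenic list (9 of 10 markers measured) had a median difference of 1.88 with 4 called higher, and its mean relative to controls ran from -0.57 to 1.11 on control arrays and from 1.21 to 3.04 on Gen arrays. The oocyte and embryo list (8 measured of 10 with a probe) had a median of 2.91 with 0 called, ranging from -1.81 to 1.87 on control arrays and from 1.71 to 4.64 on Gen arrays. B and plasma cell markers had a median of 1.05, with 2 called higher, and macrophage markers one of 0.37, with 1 called higher. All 10 smooth muscle markers were below 0 with a median of -0.26, and 0 were called. Stromal (-0.03), ciliated (-0.13), endothelial (0.20), squamous (-0.03) and adipocyte (-0.20) lists had smaller medians, with 0 of their measured markers called. The part of these cell types in the results below was not tested. In whole oviduct, fewer cells of a type, less RNA per cell and a smaller share of the total RNA cannot be told apart on the arrays. By histology, the paper reports thickened oviduct walls in Gen-treated mice on GD2, made up mainly of extra muscle.

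The start sites of Nap1l5, Nnat and Phlda2, the imprinted genes with the strongest or nearest to significant differences below, are shown as the 250 bases upstream in RefSeq (GRCm38.p6), 5′ to 3′ on the strand of the gene. Capitals mark CpG dinucleotides, the bases that carry imprinting methylation. They lie at chr6:58907127-58907376 (minus strand) for Nap1l5, at chr2:157559828-157560077 (plus strand) for Nnat and at chr7:143502525-143502774 (minus strand) for Phlda2.
Nap1l5: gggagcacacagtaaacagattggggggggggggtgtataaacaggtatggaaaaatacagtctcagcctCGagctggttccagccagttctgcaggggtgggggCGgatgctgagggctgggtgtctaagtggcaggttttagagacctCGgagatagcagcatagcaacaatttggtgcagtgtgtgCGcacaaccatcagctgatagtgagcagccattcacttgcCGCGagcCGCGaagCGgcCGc
Nnat: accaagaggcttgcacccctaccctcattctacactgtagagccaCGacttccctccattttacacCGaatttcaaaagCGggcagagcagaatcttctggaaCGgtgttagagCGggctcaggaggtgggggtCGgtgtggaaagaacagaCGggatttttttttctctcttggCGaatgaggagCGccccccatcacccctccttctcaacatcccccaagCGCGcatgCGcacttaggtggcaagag
Phlda2: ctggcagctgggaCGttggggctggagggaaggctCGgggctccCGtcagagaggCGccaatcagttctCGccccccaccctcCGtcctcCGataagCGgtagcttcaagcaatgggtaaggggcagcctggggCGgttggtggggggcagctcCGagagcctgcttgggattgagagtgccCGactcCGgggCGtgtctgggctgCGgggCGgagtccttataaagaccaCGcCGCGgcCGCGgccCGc
The 3 stretches hold 10, 12 and 21 CpGs, in that order. Nap1l5 and Nnat are each a small paternally expressed gene inside an intron of another gene, and their own start region carries the imprint, whereas the imprint that governs Phlda2 lies at the start of the noncoding RNA Kcnq1ot1.

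Start site windows of 300 bases (250 before and 50 after) were given for 30 of the 37 genes. These genes had 42 windows with a median of 15.5 CpGs (range, 0–48), against a median of 7.0 over the 32851 windows of all 27025 genes. Of the 30 genes, 13 (43.3%) had a window with 20 or more CpGs, compared with 28.8% of all genes. The letters TGCCGC, searched on both strands and known as the core of the site bound by ZFP57, a zinc finger protein that protects imprints, were found in 26.2% of the members' windows and in 11.6% of all windows. Nap1l5 held it 2 times, as did 2 nearly identical Mest windows (chr6:30737800-30738099 and chr6:30737803-30738102). Nnat, Plagl1, Grb10, Copg2, Mcts2, Meg3, Snrpn and Zim1 held it once. TGCCGC itself contains a CpG, and the part of CpG content in these shares was not tested. These are counts of letters, since methylation was not measured on the arrays.

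On GD2, 1 imprinted gene measured well above background was called, Nap1l5, which rose in Gen-treated mice. Of the 35 genes, 30 were represented by a probe well above background on all 8 arrays. On all arrays of at least 1 group the number was 32, with Usp29 and Mkrn3 added. Magel2 was above background on 1 array, and Zim1 and Peg10 on none. Among the 32 measured genes, 1 was called higher and 0 lower. Over all probes measured in the same sense, 2.83% were called higher and 2.19% lower, so the count of imprinted genes was near the background. At an unadjusted p under 0.05, 3 of the 32 were higher (Nap1l5, Impact and Usp29), beside 9.33% of all measured probes. At that level 4 were lower (Nnat, Phlda2, Rasgrf1 and Snrpn), beside 7.34%. Usp29 was counted as measured through the Gen arrays only. Of the 30 genes on all 8 arrays, 2 were higher and 4 lower at that level, beside 6.92% and 8.28% of all such probes. At an adjusted p under 0.05 these shares were 1.92% and 2.44%. The 4 Gen arrays lay apart from the 4 control arrays for 6 of the 30 genes, Nap1l5 and Impact above and Nnat, Phlda2, Cdkn1c and Snrpn below. Over all probes on 8 arrays the share lying apart was 5.1% above and 7.34% below.

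**Figure D1:**
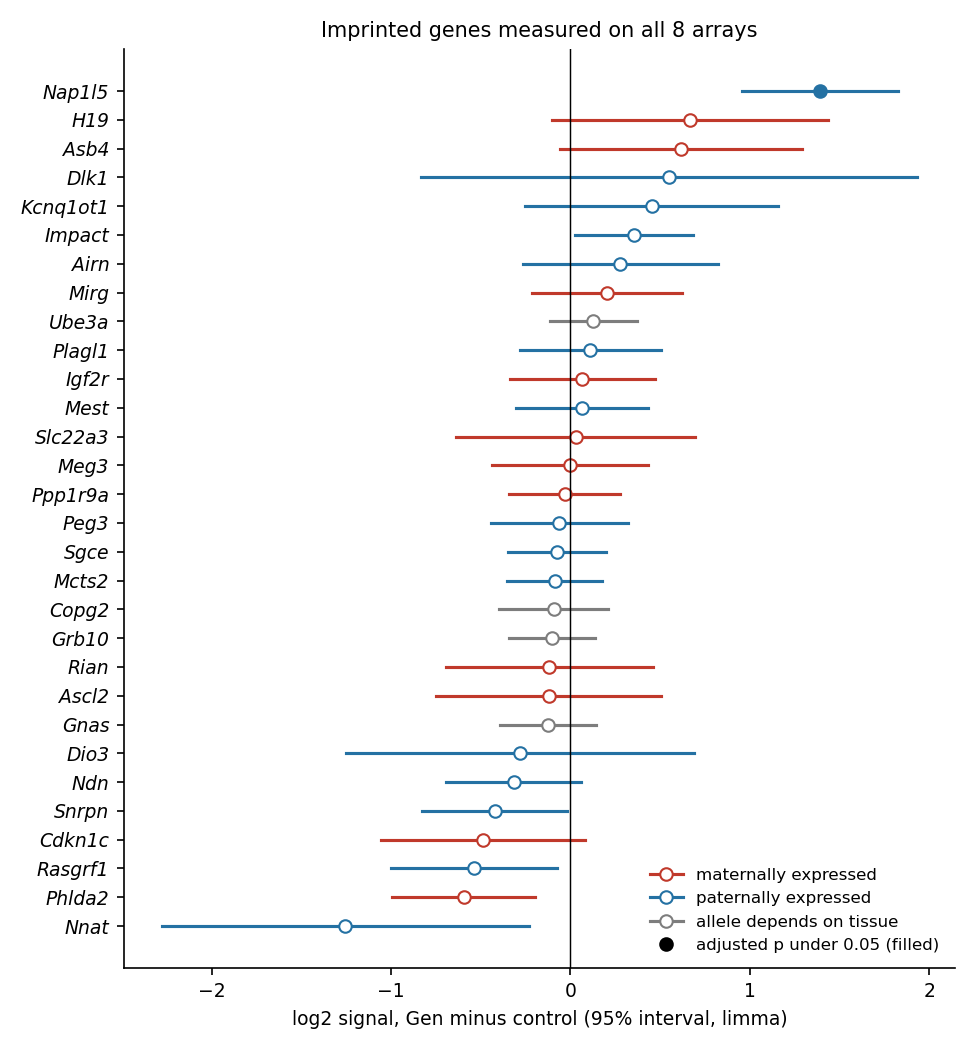
Difference in log2 signal, Gen minus control (x axis), for the 30 imprinted genes well above background on all 8 arrays (y axis), with 95% intervals from limma (n = 4 arrays per group). Red marks maternally expressed genes, blue paternally expressed genes and gray those whose allele depends on the tissue. The filled point, Nap1l5 at 1.39, is the call at an adjusted p under 0.05, and most other intervals include 0.

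The size of the differences was about that of other transcripts. The median absolute difference was 0.17 over the 30 genes and 0.17 over all probes on 8 arrays. Spread between mice was somewhat larger for the imprinted genes, with median SDs of 0.23 (control) and 0.26 (Gen), against 0.18 and 0.22 for all probes.

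Nap1l5, a paternally expressed intronless gene of the nucleosome assembly protein 1 family, had signals of 260, 244, 276 and 255 on the 4 control arrays and 826, 825, 655 and 475 on the 4 Gen arrays. Every Gen value was above every control value. The log2 difference was 1.39 (SE 0.19, 95% interval 0.96 to 1.83, limma adjusted p = 0.0236), and the exact permutation p was 0.0286 (2-sided), the smallest that 4 against 4 allows. When only probes above background entered the fit, the limma adjusted p was 0.027, beside 0.604% of those probes called higher. The control values spanned a narrow range and the Gen values a wide one. The direction held without each array in turn (log2 difference 1.30 to 1.56), but the limma adjusted p rose to 0.0591 without control 1, 0.0633 without Gen 1, 0.0675 without Gen 2 and 0.0603 without Gen 3. With 1 probe, the gene has no second measurement on the array.

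**Figure D2:**
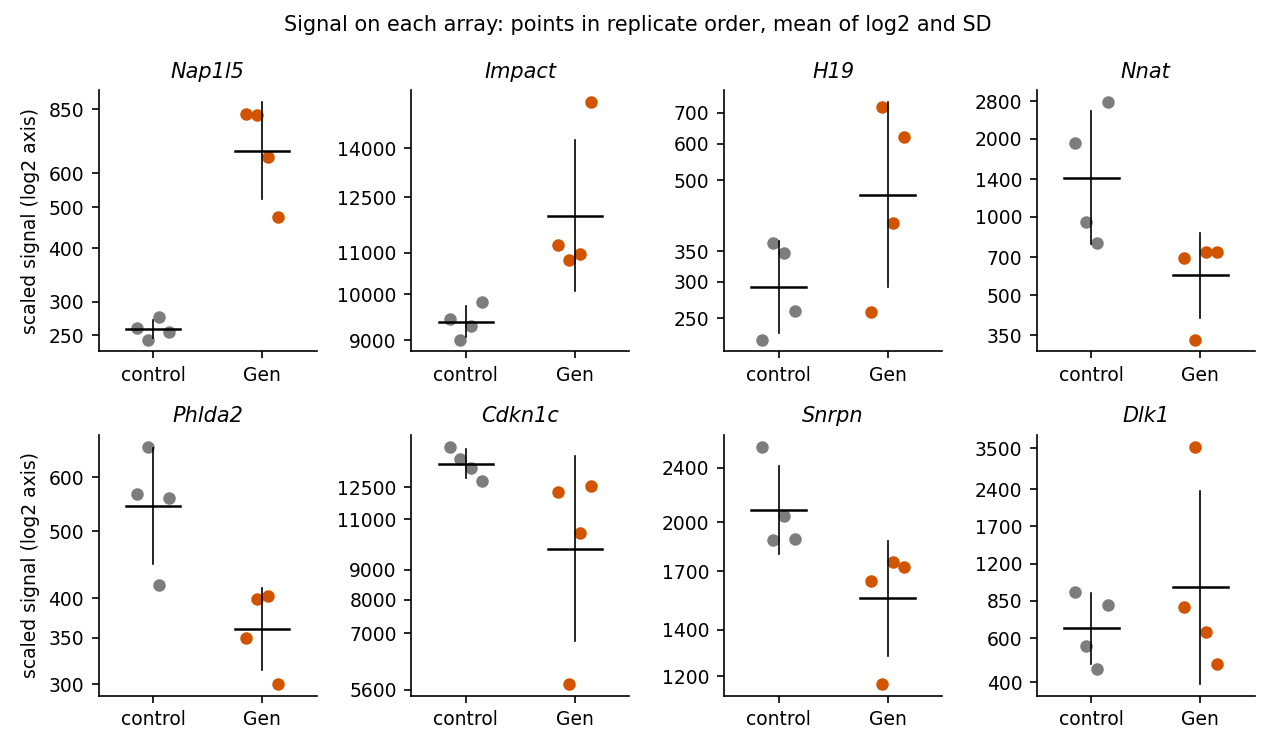
Scaled signal on each array (y axis, log2 scale, a separate range in each panel) for 8 imprinted genes in control (gray) and Gen (orange) mice. Points are single arrays in replicate order, horizontal bars the mean of log2 values and vertical bars 1 SD (n = 4). Nap1l5 was at 244–276 in controls and 475–826 in Gen-treated mice, while Dlk1 reached 3560 in 1 Gen mouse.

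Nap1l5 lies in an intron of Herc3, which encodes a ubiquitin ligase of the HERC family. The 2 Herc3 probes differed by 0.26 (SE 0.18) and 0.03 (SE 0.17), and neither was called. Genes of the same family were chosen for comparison after values had been seen. Nap1l2 differed by 0.69 (SE 0.24, limma adjusted p = 0.103), Nap1l1 by 0.26, and the brightest probes of Nap1l3 and Nap1l4 by 0.08 and -0.03. The other Nap1l4 probes gave -0.32 and -0.17. The brightest Fam13a probe, from a gene nearby, differed by 0.07 (SE 0.22) and another by -0.15 (SE 0.21). A dim Fam13a probe gave 0.82 (SE 0.32, limma adjusted p = 0.134). None of these was called.

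Controls 1 and 3 carried about as much oocyte signal as Gen 4. The oocyte and embryo list was at 1.87 in control 1 and 1.60 in control 3, against 1.71 in Gen 4, and Nap1l5 was at 260 and 276 in those controls and at 475 in Gen 4. For steroidogenic markers, control 3 was at 1.11 and Gen 3 at 1.21, with Nap1l5 at 276 and 655. Across the 4 control arrays Nap1l5 was at 244–276 and the oocyte list at -1.81 to 1.87. Within the Gen group, the 2 mice with the highest Nap1l5, Gen 1 and Gen 2, were also those with the highest steroidogenic means, 3.04 and 2.68, and the highest oocyte means, 2.90 and 4.64. B and plasma cell markers did not overlap between the groups, at -0.60 to 0.38 in controls and at 1.13, 1.83, 0.58 and 0.43 in Gen 1 to Gen 4. Their order in the Gen group was near that of Nap1l5, and the part of any of these cell types in the Nap1l5 difference was not tested.

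**Figure D3:**
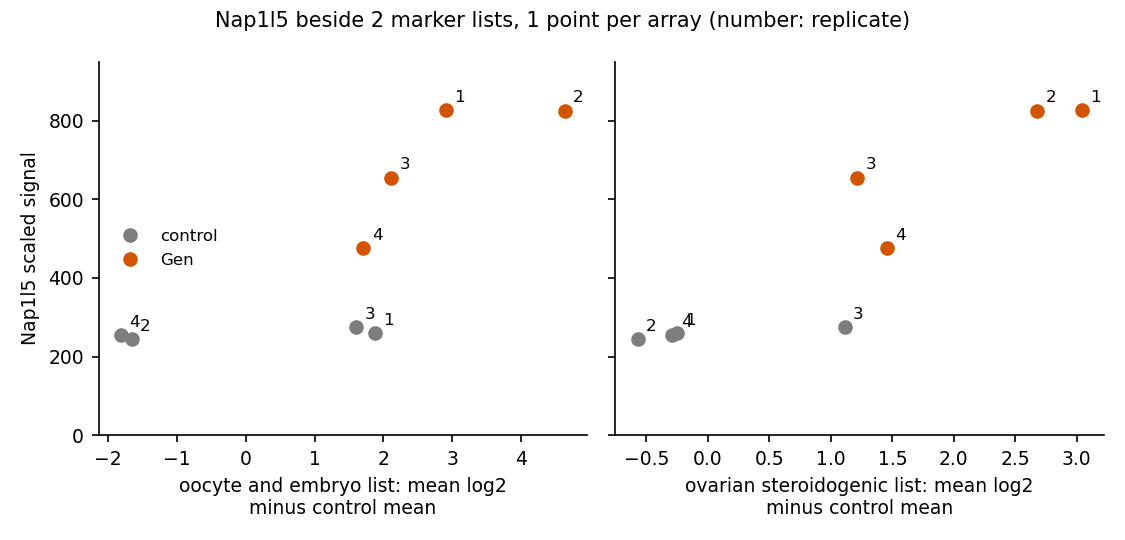
Nap1l5 signal (y axis, linear from 0) against the mean of the oocyte and embryo markers (left) or of the ovarian steroidogenic markers (right), as log2 minus the control mean, 1 point per array with its replicate number. In oocyte signal, control 1 (1.87) lies above Gen 4 (1.71), and control 3 (1.60) lies just below it. Nap1l5 is at 260 and 276 in those controls and at 475 in Gen 4. In both panels Gen 1 and Gen 2 are highest on both axes, and the part of these cells was not tested.

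Among maternally expressed genes, Phlda2 was nearest to the threshold. It encodes a pleckstrin homology domain protein that limits placental growth. Signals were 566, 664, 417 and 559 in controls and 350, 398, 404 and 300 in Gen-treated mice. The groups did not overlap, with control 3 just above Gen 3. The log2 difference was -0.59 (SE 0.17, 95% interval -0.99 to -0.20, limma adjusted p = 0.0532), and the second probe gave -0.37 (SE 0.18) with overlapping groups. With dim probes left out of the fit the limma adjusted p was 0.115. With no scaling it was 0.558, at a difference of -0.35. Across the 19 alternatives given at the end, Phlda2 was called in 3. Without control 3 the difference was -0.72 and the limma adjusted p was 0.0251. Without any other array the difference was -0.50 to -0.65 and the limma adjusted p 0.0761 to 0.135, so Phlda2 was called in that setting alone among the 8.

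Phlda2, Cdkn1c and Ascl2 belong to the domain silenced on the paternal chromosome by the noncoding RNA Kcnq1ot1. Cdkn1c, an inhibitor of cyclin-dependent kinases, was at 14672, 13952, 13476 and 12806 in controls and 12254, 5730, 10411 and 12540 in Gen-treated mice. The groups lay apart, but Gen 2 was far below the other arrays, and the log2 difference was -0.49 (SE 0.25, limma adjusted p = 0.247), or -0.23 without Gen 2. Ascl2, a bHLH factor of the trophoblast, differed by -0.12 (SE 0.27). Kcnq1ot1 itself, paternally expressed, differed by 0.45 (SE 0.31, limma adjusted p = 0.385), with its lowest signal, 787, in control 3 and its highest, 1991, in Gen 1. Of these 4 genes of the domain 0 were called, and the Ascl2 difference turned to 0.04 without control 2 and to 0.05 without Gen 4. Slc22a18 of the same domain, from the further list below, was called lower, a call lost when dim probes were left out.

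H19, a maternally expressed noncoding RNA of the neighboring cluster on chromosome 7, was read by 2 probes, which are shown because they read separate parts of 1 transcript that makes no protein. The array design places them on the minus strand of chromosome 7 in NCBI build 35 (mm7). The brighter probe lies at chr7:139003144-139003203, and the dimmer one spans chr7:139003393-139003540, so its 60 bases cover 148 bases of genome.
H19, brighter probe: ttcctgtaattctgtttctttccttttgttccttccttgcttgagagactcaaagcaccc
H19, dimmer probe: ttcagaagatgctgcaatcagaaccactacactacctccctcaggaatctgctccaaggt
The brighter probe had signals of 225, 365, 346 and 260 in the control group, while the Gen group was at 258, 722, 404 and 620, and Gen 1 lay among the controls. The dimmer probe had 111, 139, 145 and 126 in controls and 147, 320, 162 and 221 in Gen-treated mice, with no overlap. The log2 differences were 0.67 (SE 0.33, limma adjusted p = 0.240) and 0.65 (SE 0.25, limma adjusted p = 0.128), so both probes gave a similar difference and neither was called.

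Nnat encodes neuronatin, a small membrane proteolipid of the endoplasmic reticulum. It had the largest negative difference of the 32 measured genes. Signals were 1932, 960, 790 and 2767 in controls and 695, 337, 733 and 730 in Gen-treated mice. Every Gen value was below every control value, but the controls themselves ranged from 790 to 2767, and control 3 was close to 3 of the Gen mice. The log2 difference was -1.25 (SE 0.44, 95% interval -2.28 to -0.23, limma adjusted p = 0.103), and -0.98 without Gen 2. With dim probes left out of the fit the limma adjusted p was 0.175. Blcap, in whose intron Nnat lies, differed by 0.03 (SE 0.09) at its brightest probe.

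Impact, a paternally expressed regulator of translation that acts on the Gcn2 kinase pathway, was at 9446, 9013, 9292 and 9817 in controls and 11200, 10813, 10961 and 15555 in Gen-treated mice. The groups did not overlap, and Gen 4 stood above the rest. The log2 difference was 0.35 (SE 0.14, limma adjusted p = 0.149), and 0.23 without Gen 4. Rasgrf1, a paternally expressed exchange factor that activates Ras, was at 357, 506, 272 and 421 in controls and 241, 257, 310 and 243 in Gen-treated mice, with control 3 below Gen 3. Its log2 difference was -0.54 (SE 0.20, limma adjusted p = 0.121), and its other probes well above background on all 8 arrays gave -0.37 and -0.89. With dim probes left out of the fit the limma adjusted p was 0.187. Without control 3 the Rasgrf1 difference was -0.70, with a limma adjusted p of 0.0343, and without any other array it was -0.40 to -0.62, with 0.124 to 0.266.

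The Snrpn domain is the one altered in Prader-Willi and Angelman syndromes in humans. Snrpn, which encodes a splicing protein, was at 2574, 1888, 2042 and 1896 in controls and 1648, 1170, 1754 and 1725 in Gen-treated mice. The groups did not overlap, with Gen 2 again the lowest. The log2 difference was -0.42 (SE 0.17, limma adjusted p = 0.157), -0.29 without Gen 2, and the second probe gave -0.39 (SE 0.21). Ndn, a MAGE family protein, differed by -0.31 (SE 0.16, limma adjusted p = 0.257), with 3 of the 4 Gen mice (2038–2593) below all controls (3060–3273) and Gen 2 above them at 3410. Ube3a, a ubiquitin ligase that is imprinted in neurons, differed by 0.13 (SE 0.11). Mkrn3, a makorin ring finger gene well above background on 2 control arrays and all Gen arrays, differed by 0.18 (SE 0.16). Magel2 was well above background in control 1 alone, at 256, and not on the other 7 arrays. The other controls were at 12.2 to 14.2 and the Gen mice at 6.4 to 13.3. The log2 difference of -1.43 (SE 0.95) became -0.36 without control 1, and no fold is given.

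In the Dlk1-Dio3 domain 0 of the 5 genes read were called, and single mice stood out. Dlk1, a transmembrane ligand of the Notch family type, was at 919, 558, 453 and 816 in controls, with 807, 3560, 637 and 475 in Gen-treated mice. Gen 2 alone was far above the others, and the log2 difference of 0.55 (SE 0.60, limma adjusted p = 0.603) became -0.08 without it. Gen 2 was also highest in the oocyte list, at 4.64, and lowest in the ciliated list, at -0.62, and the part of these cells was not tested. The second probe had the same pattern, with 952 in Gen 2 and 73–220 on the other 7 arrays. Dio3, the deiodinase that inactivates thyroid hormone, ranged from 1709 to 5679 in controls and from 2162 to 5152 in Gen-treated mice, with a difference of -0.28 (SE 0.42).

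The maternally expressed noncoding RNAs of the same domain, Meg3, Rian and Mirg, had differences of 0.00 (SE 0.19), -0.12 (SE 0.25) and 0.20 (SE 0.18). Meg3 had the smallest difference of the genes measured on all 8 arrays, with signals of 4809, 3765, 4691 and 6586 in the control group and 4643, 4948, 4183 and 5774 in Gen-treated mice. Its 95% interval ran from -0.44 to 0.43. The other probes of Meg3 did not give the same value, and the 3 that were above background on all 8 arrays are shown with their mm7 positions on the plus strand of chromosome 12.
Meg3, chr12:107092697-107092756: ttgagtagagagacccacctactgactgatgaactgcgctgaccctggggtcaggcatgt
Meg3, chr12:107070994-107079479: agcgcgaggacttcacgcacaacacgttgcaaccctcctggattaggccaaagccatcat
Meg3, chr12:107080192-107080251: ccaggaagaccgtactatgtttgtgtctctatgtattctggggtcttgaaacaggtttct
The first is the brightest and gave 0.00. The other two gave -0.24 (SE 0.22) and -0.56 (SE 0.23), and neither was called. The second spans 8486 bases of genome with 60 bases of probe, so it crosses at least 1 intron. Probes with lower signals gave 0.25 and 0.41.

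In the Peg3 domain, Peg3, a zinc finger protein, differed by -0.06 (SE 0.17) and by -0.14 at its second bright probe. Usp29, a ubiquitin protease family member transcribed in the opposite direction from the same start region, was not well above background on any control array and was on all 4 Gen arrays. Its signals were 24.6, 10.4, 13.4 and 5.8 in controls and 22.2, 24.4, 20.6 and 22.9 in Gen-treated mice, so control 1 was above the Gen mice. The difference of 0.93 (SE 0.39, limma adjusted p = 0.161) was not called, and no fold is given. Zim1, a maternally expressed zinc finger gene, was called lower (-1.30, SE 0.27, limma adjusted p = 0.0236) with signals of 8.7, 7.3, 14.1 and 6.1 in the control group and 3.1, 3.0, 3.5 and 4.6 in the Gen group. Zim1 was not well above background on any array, where 63.6% of all such probes were called lower, so its call gives no level.

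In the Mest and Peg10 domains of chromosome 6, 0 of the members were called. Mest, a paternally expressed member of the hydrolase fold family, differed by 0.06 (SE 0.16), and Copg2, a subunit of the COPI coat, by -0.09 (SE 0.13). Sgce, the epsilon-sarcoglycan of muscle membranes, differed by -0.07 (SE 0.12, 95% interval -0.35 to 0.20), and its second probe by -0.01. Ppp1r9a, which encodes the actin-binding protein neurabin, was at 4776, 5420, 4603 and 5961 in controls and 5232, 4546, 4716 and 5801 in Gen-treated mice. The Ppp1r9a difference was -0.03 (SE 0.14, 95% interval -0.34 to 0.28), although a dimmer probe gave -0.40 (SE 0.21). Asb4, a SOCS box protein, differed by 0.62 (SE 0.29, limma adjusted p = 0.214), with 597–1397 in Gen-treated mice and 452–815 in controls. Its second probe, well above background on 3 Gen arrays and 0 control arrays, gave 0.68. Peg10, a retrotransposon-derived gene needed in the placenta, was not well above background on any array, and no fold is given.

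In the Igf2r domain, Igf2r, the cation-independent mannose 6-phosphate receptor, differed by 0.07 (SE 0.18, 95% interval -0.34 to 0.47). Airn, the paternal noncoding RNA that crosses and silences Igf2r, differed by 0.28 (SE 0.24) at the probe that represents it. Slc22a3, an organic cation transporter, had a difference of 0.03 (SE 0.29) with a split within the Gen group. Its signals were 1192, 1338, 1189 and 1096 in controls, 832 and 856 in Gen 1 and Gen 2, and 1670 and 1897 in Gen 3 and Gen 4. The first pair lay below all controls and the second pair above them. Gen 1 and Gen 2 also had the highest steroidogenic and oocyte means, and the part of those cells in the split was not tested.

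The remaining genes lie outside the domains above, with Gnas in a domain of its own. Gnas, the stimulatory G protein alpha subunit, differed by -0.12 (SE 0.12), and its second bright probe by -0.10. Another 2 Gnas probes were called lower but were well above background on no array. Grb10, an adaptor that restrains insulin receptor signaling, differed by -0.10 (SE 0.10) at its brightest probe and 0.13 (SE 0.21) at another. The dimmest Grb10 probe was at 152–190 in the control group and 102–138 in the Gen group and gave -0.49 (SE 0.14, limma adjusted p = 0.0432), a call that was lost, at 0.100, when dim probes of the array were left out of the fit. Plagl1, a zinc finger transcription factor, differed by 0.11 (SE 0.17). Mcts2, a translation factor copied into an intron of H13, differed by -0.09 (SE 0.11), and its host H13 by -0.10 (SE 0.19) at the brightest probe.

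The differences of genes classed as maternally and as paternally expressed overlapped. Of the 11 measured maternal genes, 5 had a difference above 0 and 6 below, with a median of 0.00, and of the 15 paternal genes on all 8 arrays 7 were above and 8 below, with a median of -0.06. With Usp29 and Mkrn3, which were counted as measured through the Gen arrays only, the paternal median was 0.06 over 17 genes. The 4 genes whose allele depends on the tissue had a median of -0.10, and all measured probes had one of 0.02. The paternal genes spread more widely, with a median absolute difference of 0.31 over the 15 genes against 0.12 over 11 maternal genes and 0.17 over all probes. They held both ends of the range, Nap1l5 and Nnat, while the maternal genes ran from -0.59 to 0.67. The spread of the classes was not tested.

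Averaged over genes on each array, the maternal class was at -0.19, 0.02, 0.05 and 0.20 in Gen 1 to Gen 4 relative to the control mean, and at -0.04 to 0.04 in controls. The paternal class was at 0.11, 0.10, -0.09 and -0.07 in the Gen mice and at -0.13 to 0.12 in controls. The paternal Gen values lay within the control range. For the maternal class, Gen 1 was below and Gen 3 and Gen 4 above the controls, so the Gen mice differed among themselves more than from the controls.

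**Figure D4:**
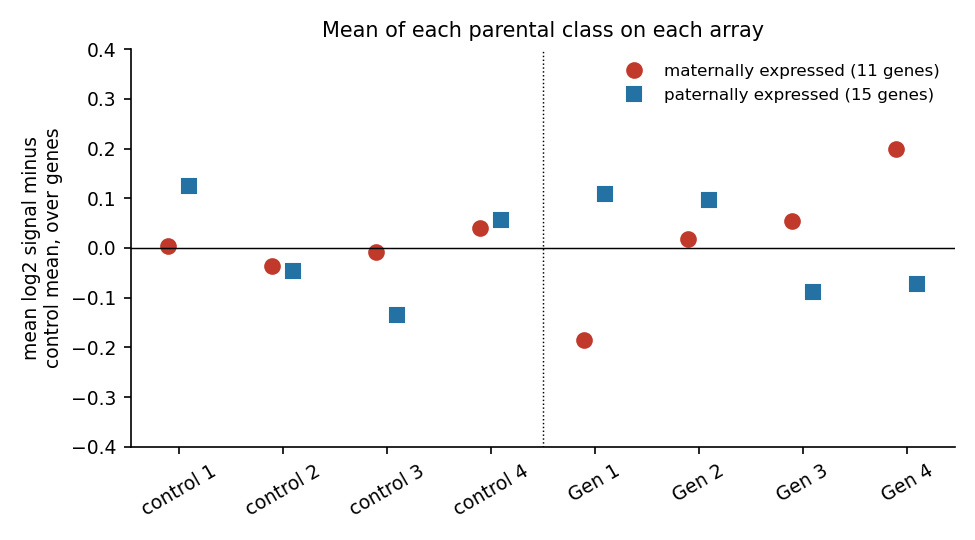
Mean log2 signal minus the control mean (y axis) on each of the 8 arrays, over 11 maternally expressed genes (circles) and 15 paternally expressed genes (squares) well above background on all 8 arrays. The dotted line divides control from Gen. Neither class is shifted in one direction in all 4 Gen mice.

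No single array accounted for the extremes. Among the 30 genes, Gen 4 was the highest or lowest of the 8 arrays for 11, Gen 1 and control 2 for 10 each, Gen 2 for 9 and Gen 3 for 2.

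Of the 35 genes, 19 had more than 1 probe, and 15 had more than 1 on all 8 arrays. For 13 of the 15 genes the probes gave differences of 1 sign, among them H19, Snrpn, Phlda2 and Rasgrf1. Probes of Airn ran from -0.78 to 0.74 and those of Grb10 from -0.49 to 0.13. The Airn probe at 0.74 was named from its description only and lies on the strand opposite to the other Airn probes. It was kept from representing the gene after its position was seen. Of all 76 probes, 6 were called, 1 higher and 5 lower, where 2.17% of all probes of the array were called higher and 14% lower. Of the 6, 4 were well above background on no array, and the other two were those of Nap1l5 and Grb10.

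**Figure D5:**
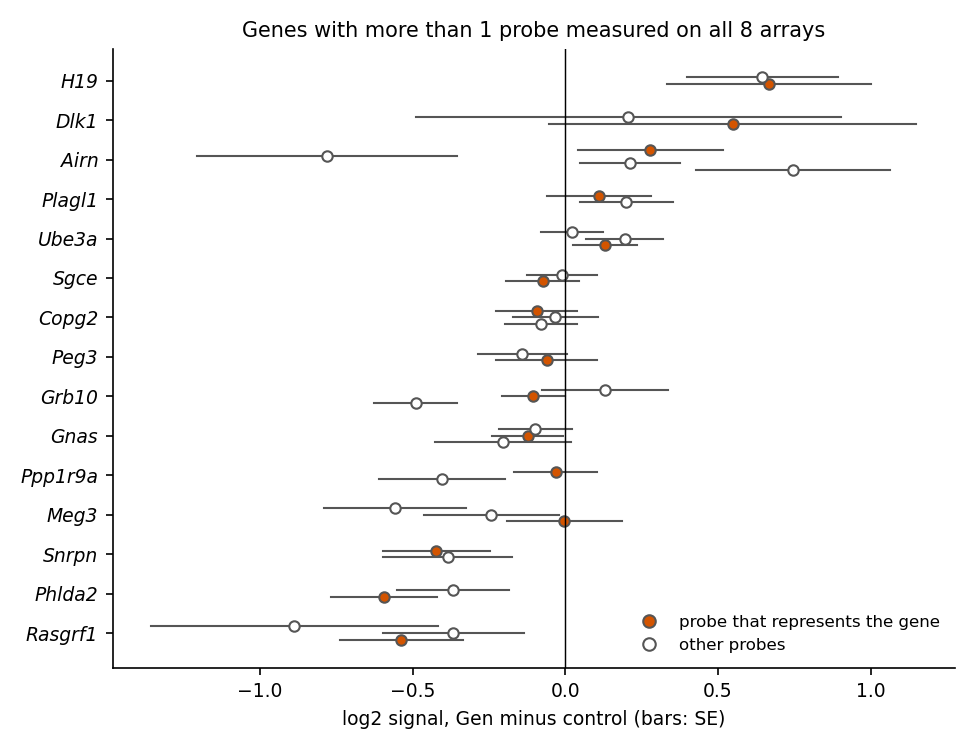
Difference in log2 signal, Gen minus control (x axis, bars 1 SE), for each probe of the 15 genes (y axis) with more than 1 probe well above background on all 8 arrays. Filled points mark the probe that represents the gene. Both H19 probes are near 0.65, whereas the Airn probes range from -0.78 to 0.74.

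A further list of 37 genes reported as imprinted in some tissue or at some stage, or lying within imprinted domains, was read in the same way. Probes were found for 33, and 27 were measured. Of these, 0 were called higher and 3 lower, with a median of -0.02, beside 2.83% of all measured probes called higher and 2.19% lower. Dlx5, a homeobox factor of the Peg10 region whose imprinting in the mouse is disputed, was at 389, 457, 235 and 494 in controls and 132, 118, 159 and 141 in Gen-treated mice, with no overlap. Dlx5 fell by 1.47 on the log2 scale, with an SE of 0.24 and a limma adjusted p of 0.0236, and with an adjusted p of 0.0367 when dim probes were left out, and of 0.0148 to 0.0675 without each array in turn. Sfmbt2, a Polycomb group protein, fell by 0.85 (SE 0.24, limma adjusted p = 0.0470), and Slc22a18, a transporter of the Kcnq1ot1 domain, by 0.50 (SE 0.14, limma adjusted p = 0.0427). Sfmbt2 was at 301, 350, 236 and 307 in the control group and 241, 130, 122 and 186 in the Gen group, with Gen 1 just above control 3. Slc22a18 was at 11302, 14263, 9979 and 11083 in the control group and 7795, 7696, 8442 and 8885 in the Gen group, with no overlap. Without dim probes in the fit their adjusted p was 0.112 and 0.100, and either call held without 1 array only where that array was control 3. Klf14 and Zim2 were also called lower but were well above background on no array.

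Of 14 genes that set or keep imprints, 13 had a measured probe and 0 were called, beside 5.02% of all measured probes. Their median was 0.16, beside 0.02 over all measured probes. Zfp57, which binds methylated imprinting control regions, differed by 0.72 (SE 0.21, limma adjusted p = 0.0514), from a signal of 60 to 98, and its groups did not overlap. Dppa3, a maternal factor that protects methylation in the early embryo and is also in the oocyte list, differed by 2.41 (SE 0.82, limma adjusted p = 0.0894). Dnmt3a, a de novo DNA methyltransferase, differed by -0.60 (SE 0.24, limma adjusted p = 0.137).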

How the data were processed

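Oviduct RNA of 8 samples was measured on 1-color Agilent arrays. The authors deposited the Feature Extraction (version 9.5) output of each array, whose processed signal is a linear intensity after background and spatial adjustment, not scaled between arrays. All 45018 spots of the series-wide file had the same intensity values. Probe positions are on NCBI build 35 (mm7). The subsequent Rosetta Resolver step was not applied.

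The 1639 control spots and outlier spots were left out, spots of a probe were averaged as log2 of the deposited intensity, and arrays were scaled to their 75th percentile. Groups and replicate numbers came from the sample titles. The 4 Gen and 4 control arrays were compared with limma 3.58.1 in R 4.3.3 without a filter on dim probes and with Benjamini-Hochberg adjustment over 41173 probes. A count test was not applicable. Genes were named through RefSeq tables (GRCm38.p6) by accession for 22951 probes and by name or synonym for 9768, and 8455 kept the file name. Single genes were also tested by exact permutation over 70 assignments. The script was tested on simulated data. Plots used matplotlib 3.10.9.

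Full values per array are given for member genes called, for genes with an unadjusted p under 0.05 and for the 3 smallest changes, and for further genes chosen after their values were seen (Cdkn1c, H19, Dlk1) and for 3 called genes of the further imprinted list. Zfp57, Dppa3 and Dnmt3a, which were not called, were named after values were seen, each with an unadjusted limma p under 0.05. The members and lists were chosen with earlier results of these data known. The number of arrays per group (4) sets the precision. Alternatives were no scaling, quantile normalization, centering on probes above background, normexp (offset 50), dim probes left out and a floor of 65.9. Others were outlier spots kept, a robust fit with an intensity trend, a block for the replicate number and Student's t-test. Gene values were also averaged over all probes, and each array was left out in turn.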

Additional observations from a re-analysis of the deposited data

Results flagged for a closer look

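In 6 of the 60 groups of 4 arrays examined over the 30 genes, the most extreme array lay farther from its neighbor than Dixon's 95% limit. Chance alone gives about 1 in 20 groups. Impact was at 15560 in Gen 4, against 11200 for the next Gen array. Nnat was at 336.6 in Gen 2, against 695.1 for the next. Snrpn was at 1170 in Gen 2, against 1648. Airn was at 312.8 in control 4, against 199.9. Ascl2 was at 108.9 in Gen 4 with the other Gen arrays at 171.4 or above, and Mcts2 was at 4709 in Gen 1 with the others at 3842 or below. The causes were not tested.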

How the results depend on the processing

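Across 19 alternatives the Nap1l5 difference was 1.13 to 1.63, and it was called in 12 (limma adjusted p = 0.0148 to 0.0791). The number of genes called higher was 0, in place of 1, with the floor, Student's t-test and the replicate block. Without each array it ranged from 0 to 1. The number called lower, 1 (Zim1), was 0 with no scaling, quantile normalization, normexp and dim probes left out. It was also 0 with the floor, Student's t-test and the block. It was 2 with centering on probes above background, the robust trend and the mean of all probes. Without each array it ranged from 0 to 3. Student's t-test on each probe called 0 probes of the array after adjustment (11364 at an unadjusted p under 0.05). Among the members 2 were higher and 4 lower at that unadjusted level. The paper called array probes by analysis of variance after Rosetta Resolver processing, which was not repeated here. It states no adjustment of that p-value, so its threshold is unlike the adjusted one used here.

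With no scaling the median of all measured probes moved from 0.02 to 0.26, and those of all, maternal and paternal members to 0.22, 0.24 and 0.31. Without each array in turn these ranged from -0.06 to 0.02, -0.09 to 0.04 and -0.065 to 0.14. Among the named genes, signs turned for Meg3 with no scaling (0.24), quantile normalization (0.0091) and without control 4 (0.14), Gen 1 (0.018) or Gen 3 (0.069; lowest without an array, -0.13), and Ppp1r9a with no scaling (0.21) and without control 4 (0.038), Gen 2 (0.019) or Gen 3 (0.0014; lowest, -0.098). Slc22a3 turned without control 4 (-0.014), Gen 3 (-0.12) or Gen 4 (-0.18), and the dim Usp29 with normexp (-0.092). Of the other members, Ascl2, Rian, Igf2r, Peg3, Mest, Plagl1 and Dlk1 also turned without at least 1 array, to values between -0.079 and 0.062. The causes were not tested.

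Same-numbered arrays of the 2 groups did not deviate together (r = -0.183 to 0.105), which cannot exclude a pairing. The paper compared Gen-treated mice with control littermates, and the sample titles do not say which arrays share a litter. With the replicate block 0 members were called in either direction, 2 higher and 4 lower at an unadjusted p under 0.05, and Nap1l5 had an adjusted p of 0.0791. Over the whole array 6674 probes were called, 5782 of them lower and mostly dim, against 321 with dim probes left out, 640 with no scaling, 178 with quantile normalization, 251 with normexp, 20 with the floor and 1 with the block. The count was 97 without control 1 and 3, 2 and 1 without Gen 1, Gen 2 and Gen 3, so calls at this threshold depend on single arrays. With 4 arrays per group on 1 slide each, small differences were not resolved.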
